A study of Mus musculus with 8 samples.

Results

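The liver makes most clotting factors and plasma complement proteins, and 34 genes of those systems were followed in livers of 4-week-old female wild-type (WT) and TrxR1/Gsr-null mice. Members were taken by symbol: all probe sets that the array's platform annotation pairs with exactly 1 of the 34 genes. That gave 42 probe sets for 33 genes, out of 22626 probe sets without controls and 12393 genes. C3 was not analysed here. The set holds 6 clotting cascade genes, 3 fibrinogen chains, 4 contact system genes, 6 inhibitor and fibrinolysis genes, 4 lectin pathway genes, 4 genes of complement convertases and their regulators, and 6 terminal complement genes.

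The 2 groups are 4 WT and 4 TrxR1/Gsr-null mice, each on a C57BL/6J background, with livers collected in the late morning and hybridized as 1 array per animal. Txnrd1 encodes TrxR1, which keeps cytosolic thioredoxin reduced, and Gsr encodes the enzyme that does the same for glutathione. The label names the second group as null for both enzymes, but does not say how, in which cells or in which part of either gene the deletion was made. The study's title points to the response driven by the transcription factor Nrf2. The labels name no treatment.

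Values are log2 expression after GCRMA, so a difference of 1 is a 2-fold change. Differences are given as TrxR1/Gsr-null minus WT, and a gene was called when its Benjamini-Hochberg adjusted p over all 7534 tested genes in limma was below 0.05. Each gene is represented by its brightest probe set, and all 33 measured members passed the filter on low values. An array gives no count of molecules, so the precision depends on the number of arrays. Limma bases each p-value and interval on the spread between these animals, drawn toward a spread shared over all genes. For genes with little spread of their own this widens the interval.

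Clotting factors circulate as inactive proenzymes that cleave each other in series until thrombin turns fibrinogen into fibrin. Inhibitors such as antithrombin stop the cascade, and plasmin dissolves the clot. Complement is a parallel chain of plasma proteases that is started by antibodies, by sugar-binding lectins or spontaneously, and that ends in a membrane pore. Hepatocytes make nearly all of these proteins, and several rank among the most abundant transcripts of the liver.

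The targeted genes were checked first. Gsr read 7.03, 7.21, 7.21 and 7.20 in WT replicates 1 to 4 and 6.02, 5.89, 5.82 and 6.31 in the null livers, with no overlap. Txnrd1 read 9.90, 9.93, 9.88 and 9.56 in WT and 12.07, 12.01, 11.65 and 11.96 in the null livers, higher in all 4. A probe set outside a deleted part checks no label. WT replicates 3 and 4 had narrower value distributions (interquartile ranges 3.97 and 3.74) than the other 6 arrays (4.31 to 4.44). The difference between the 3′ and 5′ Actb control probe sets, a sign of RNA quality, was also wider on those arrays, at 1.498 and 1.57. It was widest in the third null liver, at 1.76, and 5 arrays had 1.01 to 1.17.

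Coagulation and complement transcripts mostly had slightly lower means in TrxR1/Gsr-null liver, and 3 were called lower, of which F7 alone kept its call whichever array was left out. Of the 33 genes, 28 had a lower mean in the null livers and 5 a higher one, where 39.9% of all tested genes were lower. The median difference over the 33 genes was -0.32, and over all tested genes 0.096. Calls of a lower level numbered 3, F7 (2.38-fold), Masp2 (3.06-fold) and C8b (2.78-fold), where 2.15% of all genes were called lower. No member was called higher by limma, where 4.47% of all genes were, and none was higher at an unadjusted p below 0.05, where 14.9% of all genes were. At that unadjusted threshold 10 members were lower, and 7.92% of all genes. All 4 null values lay below all 4 WT values in 9 members (F7, F10, Fga, Serpind1, Serpinf2, Masp1, Masp2, Hc and C8b), where 5.84% of all genes showed this. The opposite separation occurred in 0 members and in 10.7% of all genes. After further quantile normalization, all calls split into 314 higher and 272 lower, against 337 and 162 here.

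**Figure D1:**
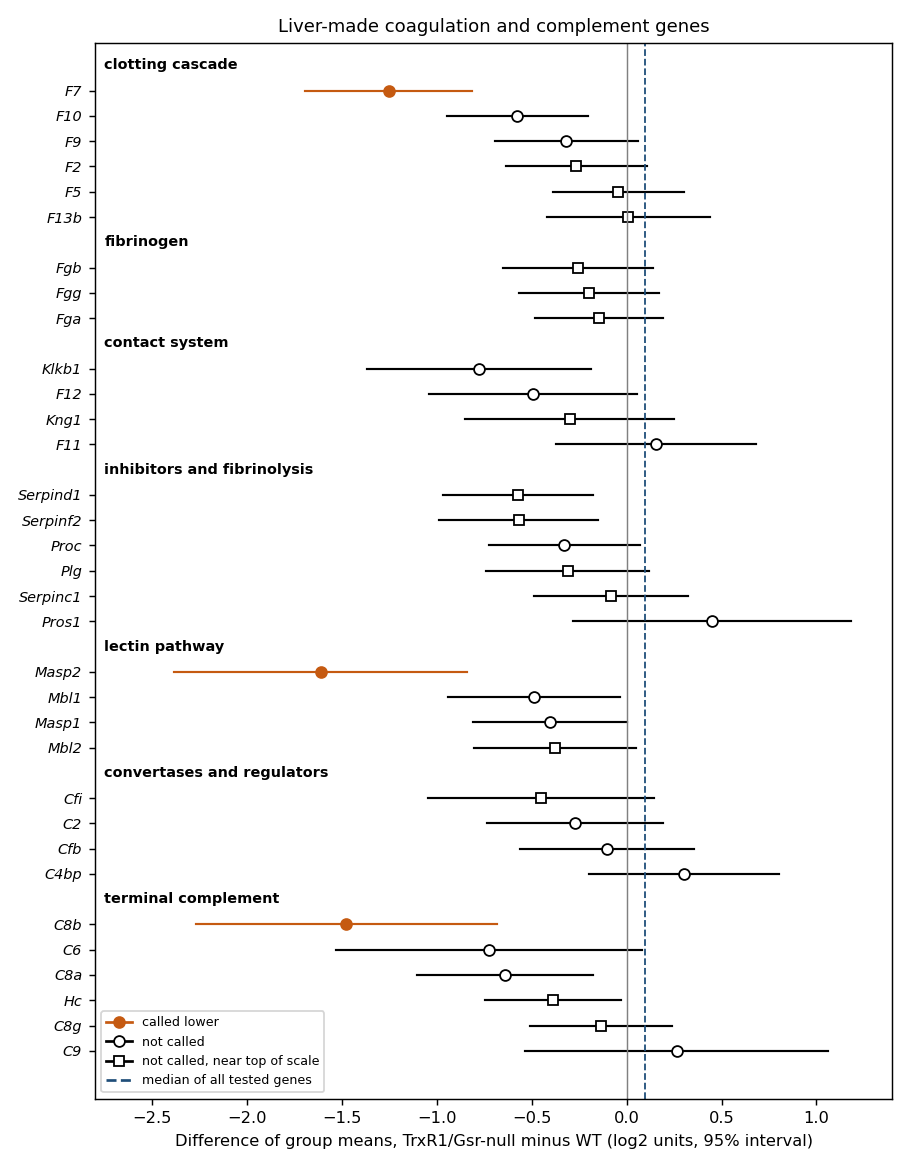
Difference of group means for the 33 measured genes by role, in log2 units (TrxR1/Gsr-null minus WT), with 95% intervals from limma. Filled orange points are the 3 genes called lower (F7, Masp2, C8b), squares are genes near the top of the scale, and the dashed line is the median of all tested genes, 0.096. Most points lie left of 0.

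Because whole liver was measured, fewer cells of a type and less RNA per cell cannot be told apart. Hepatocyte markers had lower means as well. All 7 tested markers of hepatocytes were below WT by means, with a median difference of -0.44, none was called by limma (1 at an unadjusted p below 0.05), and their summed linear level was 71045 to 87390 in WT and 44496 to 70110 in null livers. Their part in the member differences was not tested.

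Promoter windows of the 3 called genes are shown because F7, Masp2 and C8b carry the calls. They come from the RefSeq promoter table of build GRCm38.p6 and run from 250 bases before to 50 bases after the annotated start, 5′ to 3′ on the gene's own strand. The array names no build, and these windows were not measured here. Capitals mark a match to any searched motif.
F7, chr8:13025784-13026083, plus strand: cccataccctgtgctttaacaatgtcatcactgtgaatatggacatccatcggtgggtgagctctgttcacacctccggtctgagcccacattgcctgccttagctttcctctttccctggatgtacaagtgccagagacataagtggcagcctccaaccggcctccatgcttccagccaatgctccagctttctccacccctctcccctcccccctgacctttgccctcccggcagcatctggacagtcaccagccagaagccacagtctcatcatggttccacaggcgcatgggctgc
Masp2, chr4:148602294-148602593, plus strand: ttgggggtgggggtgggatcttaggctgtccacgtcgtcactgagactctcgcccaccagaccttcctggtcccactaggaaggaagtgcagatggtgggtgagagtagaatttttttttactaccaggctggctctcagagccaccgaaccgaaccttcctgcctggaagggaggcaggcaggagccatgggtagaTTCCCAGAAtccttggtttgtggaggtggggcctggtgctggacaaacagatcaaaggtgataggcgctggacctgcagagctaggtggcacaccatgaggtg
C8b, chr4:104766067-104766366, plus strand: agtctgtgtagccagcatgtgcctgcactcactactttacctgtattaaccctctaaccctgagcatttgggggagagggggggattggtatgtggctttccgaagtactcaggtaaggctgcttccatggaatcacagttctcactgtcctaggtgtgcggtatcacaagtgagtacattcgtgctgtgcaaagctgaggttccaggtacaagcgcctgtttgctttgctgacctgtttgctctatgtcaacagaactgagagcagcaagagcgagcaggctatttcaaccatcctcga

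The motifs were searched on both strands in the 28 windows of 27 members and in all 32851 windows. The letters GTTAATNAT of an HNF1 site occurred in C4bp, F13b, Fga and Hc, 14.3% of member windows and 0.801% of all windows. TTCNNNGAA, a STAT site, occurred in 6 member genes (C8a, F9, Fga, Fgb, Masp2 and Pros1), 21.4% against 8.3%, and gave the match in the Masp2 window. TGACNNNGC, the core of the antioxidant response element bound by Nrf2, occurred in Klkb1, Mbl1 and Serpind1, 10.7% of member windows and 12.4% of all. CAAAGTCCA of HNF4 and TTGCGCAA of C/EBP occurred in 0 member windows (0.475% and 0.183% of all), and TTGCACAA of C/EBP in F9 (3.57% and 1.01%). The F7 and C8b windows held no exact match to any of these letter sequences. Other spellings of a site were not searched, so no match does not mean no site. A match describes letters, not binding.

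In the clotting cascade, F7 was the member that fell. F7 encodes factor VII, the protease that binds tissue factor and starts clotting, and it is short-lived in plasma. It read 9.19, 9.01, 9.35 and 9.55 in WT and 7.97, 7.88, 8.39 and 7.84 in the null livers. Every null value was below every WT value, and replicate 3 was the highest of the null livers. The means were 9.27 ± 0.23 and 8.02 ± 0.25 (SD, n = 4 each), a difference of -1.25 ± 0.20 (SE) with adjusted p = 0.00508. In the fit by brightest probe set, F7 was the only member called with each of the 8 arrays left out in turn (adjusted p up to 0.0213).

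F10 encodes factor X, which factor VII activates, and its gene lies next to F7. Its brightest probe set read 11.89, 11.93, 11.89 and 11.82 in WT and 11.21, 11.26, 11.59 and 11.17 in the null livers. The groups did not overlap, the difference was -0.58 ± 0.17 (SE), and the gene was not called (adjusted p = 0.0698; 0.048 without TrxR1/Gsr-null replicate 3). The _s_at probe set of F10 read 8.21, 7.93, 7.75 and 7.98 against 6.93, 6.70, 7.54 and 6.87. It was called lower by 1.94-fold (adjusted p = 0.0315 over all probe sets in limma), but of the 8 fits with 1 array left out it was called only where TrxR1/Gsr-null replicate 3 was absent (adjusted p up to 0.1 in the others). The third F10 probe set averaged 8.50 in WT and 8.01 in null livers, with overlap between the groups. The neighbouring Proz, which encodes protein Z and is no member, had means of 10.45 ± 0.10 and 10.07 ± 0.18 (SD, n = 4 each) (adjusted p = 0.213), again with no overlap.

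The other cascade genes differed less. F2, which encodes prothrombin, read 12.71, 12.59, 12.92 and 12.73 in WT and 12.38, 12.35, 12.69 and 12.48 in the null livers. Its difference was -0.26 (95% interval -0.64 to 0.11, adjusted p = 0.388), and 3 of 4 null values lay below the lowest WT value. F9, the factor missing in haemophilia B, had a difference of -0.32 (-0.69 to 0.06). F5, the cofactor of factor X, was at 11.69 ± 0.07 in WT and 11.65 ± 0.09 in null livers (interval -0.39 to 0.30), and its other probe set had a difference of -0.10. F13b, the carrier subunit of the fibrin-crosslinking factor XIII, had means of 11.67 and 11.68 (interval -0.42 to 0.44).

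Fibrinogen is the substrate of thrombin and is built from 3 chains encoded side by side. Fga read 13.60, 13.68, 13.54 and 13.54 in WT and 13.50, 13.39, 13.47 and 13.40 in the null livers. The groups did not overlap, yet the gap was small, with a difference of -0.15 (interval -0.48 to 0.19, adjusted p = 0.618). Its SDs were 0.06 in WT and 0.05 in null livers, while the SE from limma was 0.15. With a shared spread that follows expression level (trended, robust prior) the SE was 0.084, and Fga was still not called (adjusted p = 0.329). Fgb averaged 13.75 ± 0.22 and 13.49 ± 0.12, and Fgg 13.54 ± 0.16 and 13.34 ± 0.09 (SD, n = 4 each). None of the 3 was called by limma, and none had an unadjusted p below 0.05. All 3 lie near the top of the measured scale.

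The contact system starts clotting on foreign surfaces and releases bradykinin. Klkb1, which encodes plasma prekallikrein, read 11.34, 11.17, 11.32 and 11.10 in WT and 9.93, 10.28, 11.25 and 10.35 in the null livers. Replicates 1, 2 and 4 of the null livers lay below all WT values, and replicate 3 lay within the WT range. The difference was -0.78 (interval -1.37 to -0.19, adjusted p = 0.113), and without that replicate it was -1.04 with adjusted p = 0.0162. F12, the factor that activates prekallikrein, showed the same layout, with 11.26 ± 0.09 in WT and 10.07, 10.77, 11.23 and 10.99 in the null livers (adjusted p = 0.269). Kng1, which encodes the kininogen that carries bradykinin, had differences of -0.30 and -0.26 at its 2 probe sets, and its close relative Kng2 could be read by them too. F11, encoded beside Klkb1, read 9.44, 8.99, 9.33 and 8.52 in WT and 8.93, 9.44, 9.14 and 9.41 in the null livers, with full overlap and a difference of 0.16 (interval -0.37 to 0.68).

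F7, F10, F11 and Klkb1 lie on the same chromosome as the targeted Gsr, with 17 to 56 tested genes between them and it. On that chromosome 6.64% of 422 tested genes were called, and 6.62% over all genes. Of the 10 tested genes nearest to F7, 0 were called by limma. Whether position bears on the F7 difference was not tested further.

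**Figure D2:**
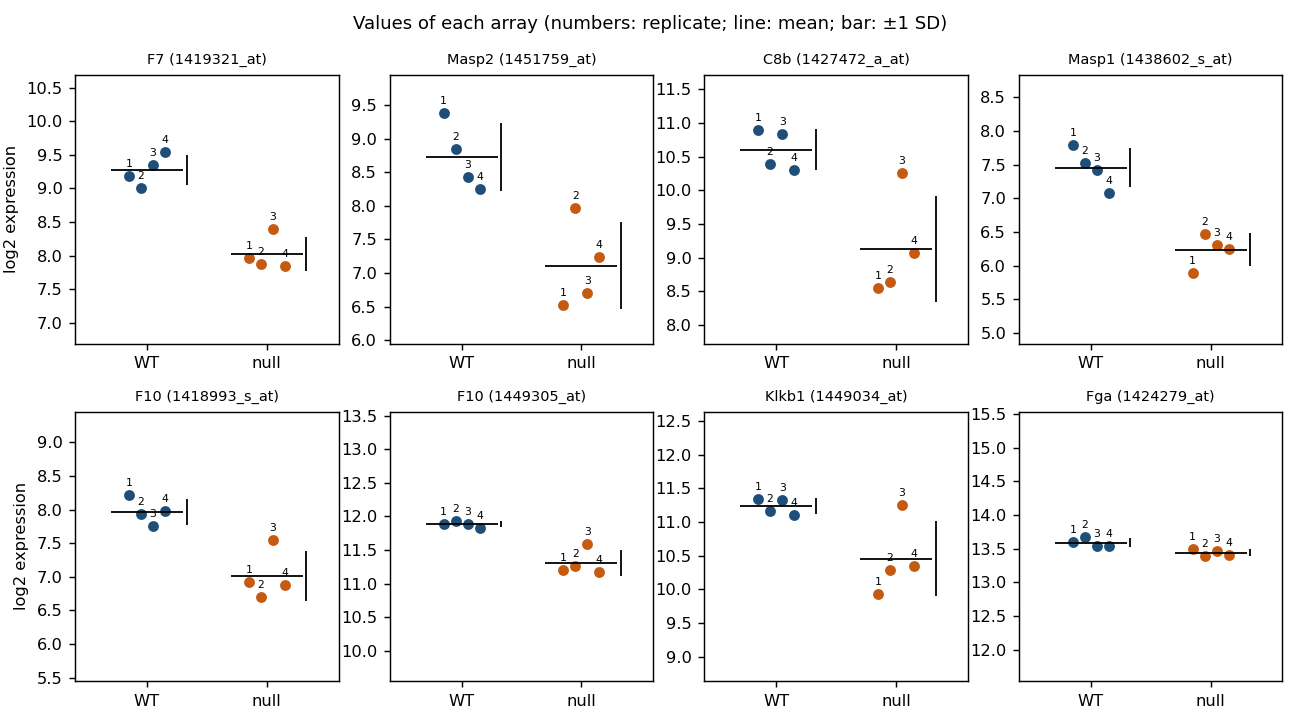
Log2 expression of 8 probe sets on each array, with WT in blue and TrxR1/Gsr-null in orange; numbers are replicates, lines are means, bars are ±1 SD, and every panel spans 4 log2 units. All panels but Klkb1 separate without overlap, replicate 3 is the null value nearest to WT in F7, C8b, F10 and Klkb1, and Fga differs by only 0.15.

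Among the inhibitors of clotting and the fibrinolysis genes, 5 of 6 had lower means and 0 were called by limma, with 2 at an unadjusted p below 0.05. Serpind1, which encodes the thrombin inhibitor heparin cofactor II, read 12.26, 12.12, 11.90 and 11.83 in WT and 11.44, 11.52, 11.61 and 11.25 in the null livers. Its groups did not overlap, with a difference of -0.57 ± 0.18 (SE, adjusted p = 0.0881). Serpinf2, which encodes the plasmin inhibitor alpha-2-antiplasmin, read 12.58, 12.33, 12.27 and 12.14 against 11.67, 12.004, 11.90 and 11.47, again without overlap (difference -0.57, adjusted p = 0.105).

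Serpinc1, which encodes antithrombin, read 13.16, 12.91, 13.18 and 13.03 in WT and 12.78, 12.79, 13.30 and 13.07 in the null livers. These overlapped, and the difference was -0.08 (interval -0.49 to 0.33). Proc, the zymogen of activated protein C, had a difference of -0.33 (-0.73 to 0.07) and Plg, the zymogen of plasmin, one of -0.31 (-0.74 to 0.12). Pros1, the cofactor of protein C, had the highest positive difference of the 33 genes, 0.45 (-0.28 to 1.18). That value rests on WT replicate 4, which read 5.91 against 7.32 to 7.51 in the other 3 WT livers and 7.31 to 7.67 in the null livers. Without it the difference was 0.08.

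In the lectin pathway of complement all 4 genes had lower means, and Masp2 was called. Masp2 encodes the protease that cleaves C4 and C2 once a lectin has bound sugar on a microbe. Its brightest probe set read 9.37, 8.84, 8.43 and 8.24 in WT and 6.53, 7.97, 6.71 and 7.24 in the null livers. No values overlapped, but both groups were spread widely, and the difference was -1.61 ± 0.35 (SE, adjusted p = 0.0226). Leaving out any of the second WT liver and null livers 1, 3 and 4 ended the call (adjusted p 0.0519 to 0.0687). The other Masp2 probe set, an _a_at one, averaged 8.08 ± 0.13 in WT and read 6.74, 8.12, 7.50 and 7.96 in the null livers, with a difference of -0.50 (adjusted p = 0.342 over all probe sets). With the mean of both probe sets the Masp2 difference was -1.06 (adjusted p = 0.0534). A probe set ending in _a_at can match several transcripts of 1 gene.

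Masp1 encodes the partner protease that activates Masp2, and its 5 probe sets did not give the same picture. The brightest read 10.26, 10.25, 10.43 and 10.21 in WT and 9.97, 9.93, 10.13 and 9.52 in null livers, without overlap and without a call (difference -0.40, adjusted p = 0.223). The dimmer of its 2 _s_at probe sets read 7.79, 7.53, 7.42 and 7.08 against 5.89, 6.47, 6.31 and 6.25. It was called lower by 2.34-fold (adjusted p = 0.00804 over all probe sets, and up to 0.0281 with each array left out). The brighter _s_at probe set had a difference of -0.56 without a call, the _x_at one a difference of 0.11, and the last lay below the low-value limit of 3.38 in both groups. Probe sets ending in _s_at or _x_at can match more than 1 transcript.

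Mbl1 and Mbl2 encode the mannose-binding lectins that start the pathway. Mbl1 read 10.73, 10.71, 10.98 and 10.73 in WT and 10.10, 10.21, 10.81 and 10.08 in the null livers, where replicate 3 alone reached the WT values (difference -0.49, adjusted p = 0.189). Mbl2 was brighter, at 12.44 ± 0.18 and 12.06 ± 0.27, and 3 of its 4 null values lay below the lowest WT value (difference -0.38, adjusted p = 0.279).

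Among convertase genes and regulators, 3 of 4 had lower means and none was called by limma or had an unadjusted p below 0.05. C2, the protease of the classical and lectin convertase, read 9.30, 8.98, 9.05 and 9.24 in WT and 8.37, 8.92, 9.16 and 9.04 in the null livers, with overlap. Cfb, its alternative pathway counterpart, had means of 11.69 and 11.58. Cfi, which inactivates C3b and C4b, split within the null group: replicates 1 and 2 read 11.36 and 11.58, replicates 3 and 4 read 12.46 and 12.35, and WT values were 12.11 to 12.56. C4bp, the cofactor of Cfi, had a difference of 0.30 (interval -0.20 to 0.80).

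In the terminal pathway, which builds the membrane attack complex, C8b fell and 5 of 6 genes had lower means. C8b encodes the beta chain of C8. Its only probe set is an _a_at one. C8b was therefore absent from the fit without _s_at, _x_at and _a_at probe sets. It read 10.90, 10.39, 10.84 and 10.30 in WT and 8.55, 8.64, 10.26 and 9.07 in the null livers, a difference of -1.48 ± 0.36 (SE, adjusted p = 0.0356). The highest null value, in replicate 3, was only just below the lowest WT value. Without that replicate the difference was -1.85 with adjusted p = 0.00353, and without any other single array the call was lost (adjusted p 0.0519 to 0.106). It was also lost without a filter on low values (adjusted p = 0.0532) and without both WT replicates 3 and 4 (adjusted p = 0.113).

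C8a, encoded beside C8b, makes the chain that inserts into the membrane. It read 11.72, 11.59, 11.74 and 11.40 in WT and 10.97, 10.83, 11.45 and 10.63 in the null livers. Its difference was -0.64 (interval -1.10 to -0.18, adjusted p = 0.101; 0.0413 without TrxR1/Gsr-null replicate 3). C8g, the third chain, averaged 12.29 ± 0.10 and 12.16 ± 0.18. The 3 chains of C8 thus had differences of -1.48, -0.64 and -0.13, and these were not tested against each other.

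Hc, the mouse gene for complement C5, read 12.30, 12.11, 12.22 and 12.22 in WT and 11.71, 11.68, 11.97 and 11.93 in the null livers. The groups did not overlap, with a difference of -0.39 (interval -0.75 to -0.03, adjusted p = 0.188). C6 was the dimmest member, at 5.13 ± 0.74 and 4.40 ± 0.44. WT replicate 4 read 6.22 against 4.61 to 4.99 in the other WT livers, and without it the C6 difference was -0.36 in place of -0.73. C9, which polymerizes into the pore, had a difference of 0.26 (interval -0.53 to 1.06), and WT replicate 4 read 9.74 against 10.94 to 11.41 in the other WT livers. Without that array the C9 difference was -0.08.

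Many members are among the brightest probe sets of the array. A probe set was marked as near the top of the scale when its mean over the 8 arrays was at or above 11.66, the 98th percentile of all probe sets. That marked 16 of 42 member probe sets and 15 genes: F2, F5, F13b, Fga, Fgb, Fgg, Kng1, Serpinc1, Serpind1, Plg, Serpinf2, Mbl2, Cfi, Hc and C8g. Among these 15 genes the differences ran from -0.57 to 0.01 with a median of -0.26, and 0 were called by limma in the main fit (3 at an unadjusted p below 0.05). The 18 members below that level had a median of -0.45 and include all 3 calls of that fit. This split depends on the setting. Serpind1 was called lower with array weights (adjusted p = 0.0124), a trended, robust prior (0.0272), the block of replicates 1 and 2 against 3 and 4 (0.0405) and median centring (0.0478). Serpinf2 was called with the trended, robust prior (0.0377). Over all 453 probe sets near the top 1.77% were called lower and 2.21% higher. Differences of the 453 ran from -1.17 to 1.68, with a median of -0.021. The median size of a difference was 0.23 there and 0.30 over all tested probe sets. Whether saturation shortened the member differences was not tested.

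**Figure D3:**
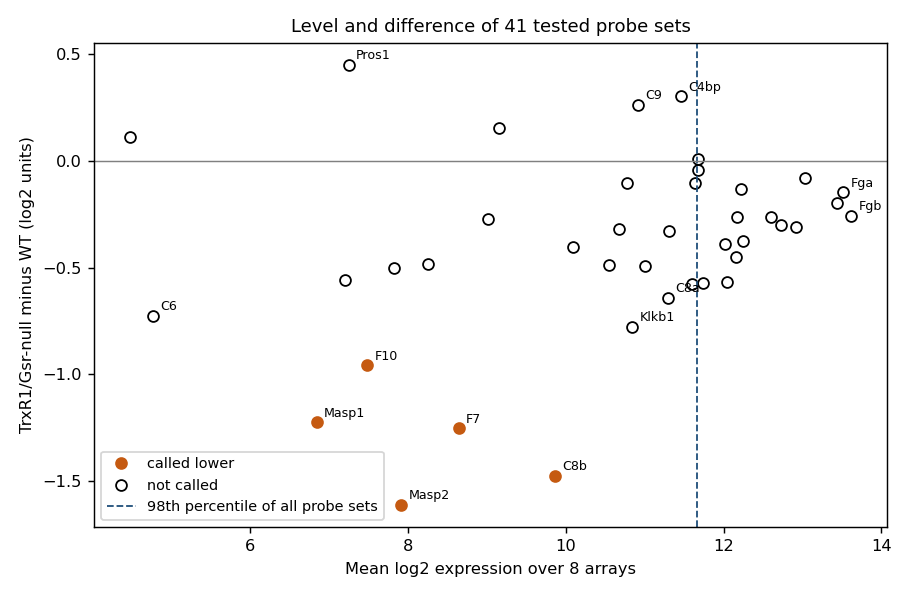
Mean log2 expression over 8 arrays (horizontal) and difference TrxR1/Gsr-null minus WT in log2 units (vertical) for the 41 tested member probe sets. The 5 called probe sets (orange: F10, Masp1, F7, C8b, Masp2) lie below a mean of 10, and those right of the dashed line at 11.66 have differences between -0.57 and 0.01.

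Counted by probe set, 41 of the 42 passed the filter, 35 were lower in the null livers, and 5 were called lower (F7, Masp2, C8b and 1 each of F10 and Masp1). In that fit 1.86% of all probe sets were called lower and 4.31% higher, and 0 member probe sets were called higher by limma.

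The null livers did not contribute equally. Relative to the WT mean of each gene, the median of the 33 members was -0.50, -0.37, -0.05 and -0.36 in TrxR1/Gsr-null replicates 1 to 4. WT livers ranged from -0.07 to 0.09, and all tested genes from 0.063 to 0.16 in the null livers. Replicate 3 was thus the null liver closest to WT, and in 20 of the 28 lower members it had the highest null value. It had 13 members below the lowest WT value, against 24, 26 and 22 in replicates 1, 2 and 4. Over all tested genes the share below the lowest WT value was 22.0%, 16.7%, 20.5% and 16.6% in replicates 1 to 4, so replicate 3 was not the lowest there. Replicate 3 is also the array with the widest Actb 3′ to 5′ difference of the 8, and the part of RNA quality was not tested. Without it the member median was -0.41, and F7, F10, Klkb1, C8a and C8b were called lower (1.78% of all genes), while Masp2 was not (adjusted p = 0.0627). Some members that were not called rest on another array. Without TrxR1/Gsr-null replicate 1 the difference was -0.26 for F12, -0.19 for Plg, -0.10 for C2 and -0.26 for Cfi, and without TrxR1/Gsr-null replicate 4 it was -0.15 for Kng1.

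**Figure D4:**
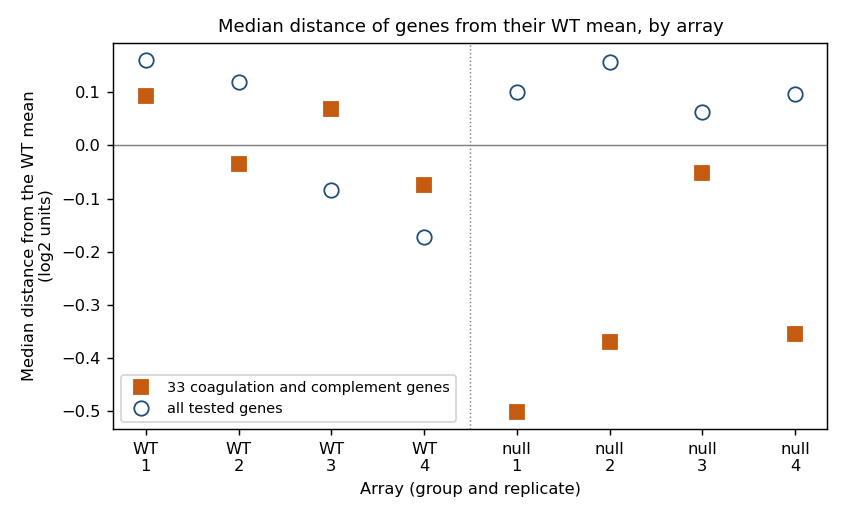
Median distance from the WT mean, in log2 units, on each of the 8 arrays for the 33 members (orange squares) and for all tested genes (open circles). The members sit at -0.50, -0.37 and -0.36 in null replicates 1, 2 and 4 and at -0.05 in replicate 3, while all genes lie between 0.063 and 0.16 in the null livers.

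Same-numbered animals of both groups deviated together, so a fit with a replicate block was run too. It called the same 3 members, where 3.19% of all genes were lower. Interquartile ranges in WT were 4.44 and 4.38 in replicates 1 and 2, and 3.97 and 3.74 in replicates 3 and 4. In the null livers they were 4.38 and 4.44, and 4.31 and 4.38. No label calls this split of replicates a batch. Blocking on it, limma called 5 members lower (F7, F10, Serpind1, Masp2 and C8b; 4.43% of all genes). Within replicates 1 and 2 the calls were F7, Klkb1 and C8b (3.13% of all genes), 30 of 33 members were lower and their median was -0.47. Within replicates 3 and 4 limma called 0 (0.398% of all genes), 26 of 33 were lower and the median was -0.24. With array weights 8 members were called lower (5.68% of all genes), and with a trended, robust prior 7 were (2.81%).

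Other genes of the same systems were followed in lists. Of 13 tested coagulation and fibrinolysis genes outside the set, 1 was called lower and 0 higher, 10 were lower, and the median difference was -0.32. The called gene, Hgfac, encodes the activator of hepatocyte growth factor, a protease related to factor XII. Its means were 10.65 ± 0.08 and 8.94 ± 0.45 (SD, n = 4 each), 3.27-fold lower in null livers (adjusted p = 0.00207 in limma), and it was called with each array left out. Of 14 other complement genes 11 were lower, with a median of -0.17 and 0 calls by limma (3 at an unadjusted p below 0.05). C1qa, C1qb and C1qc, the C1q chains made by macrophages, had differences of -0.15, 0.03 and -0.68. In the vitamin K cycle, which activates factors II, VII, IX and X, Ggcx, the carboxylase, averaged 5.66 and 5.86 and Vkorc1, the epoxide reductase that warfarin blocks, 11.58 and 11.26, neither called. The list's 1 call of 4 was Nqo1, a quinone reductase and known Nrf2 target, which rose 24.0-fold.

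Secreted proteins of hepatocytes outside clotting and complement had lower means too. This held for all 15 tested, with a median of -0.30 and a range from -0.86 to -0.03, beside the member median of -0.32. Itih1, a chain of the inter-alpha-trypsin inhibitor, was the 1 called, 1.82-fold lower (adjusted p = 0.0211), and not called without the third WT liver, null liver 1 or null liver 2 (adjusted p up to 0.0761). Alb averaged 14.32 ± 0.30 and 13.85 ± 0.49 without a call (adjusted p = 0.324).

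Acute phase genes, a class that includes fibrinogen, were split in direction. Of 18 tested, 10 were higher and 8 lower, with a median of 0.11 and 2 called higher. Lcn2, an iron-siderophore binding protein, rose 8.73-fold (adjusted p = 0.006), and Saa3, a serum amyloid A, 2.78-fold (adjusted p = 0.0231). Saa3 lost its call without null liver 1, 2 or 3 (highest adjusted p 0.0632). Of 10 hepatocyte transcription factors 8 were lower and none was called by limma (2 at an unadjusted p below 0.05). Hnf4a, which drives many clotting genes, averaged 11.08 ± 0.31 and 10.74 ± 0.39, Cebpa 10.75 ± 0.23 and 10.30 ± 0.50, and Cebpb 10.47 ± 0.14 and 10.32 ± 0.42. Without _s_at, _x_at and _a_at probe sets the Hnf4a difference was 0.13.

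Markers of other liver cells differed in direction between lists. Kupffer cell and macrophage markers were lower in 6 of 9 (median -0.15, summed linear level 6255 to 10870 in WT and 5461 to 7829 in null), endothelial markers in 7 of 10 (-0.33, 1930 to 2391 and 1730 to 2260), and stellate cell and matrix markers in 7 of 8 (-0.25, 6243 to 8091 and 4896 to 6847). Limma called none of these 3 lists' genes (3, 2 and 1 at an unadjusted p below 0.05, all lower). Lymphocyte and neutrophil markers were higher in 3 of 3 tested (1.14), with 6 others, Cd3e and Cd79a among them, below the low-value limit. None of the 3 was called by limma, and 2 were higher at an unadjusted p below 0.05. Their summed linear level was 149 to 239 in WT and 215 to 293 in null livers. Of platelet and erythroid markers 2 of 3 tested were higher and the transferrin receptor Tfrc was called, and Epcam was called higher among 2 tested bile duct markers (adjusted p = 0.041, and up to 0.125 with 1 array left out) while Krt19, Krt7 and Cftr were below the limit. Their part in the member differences was not tested.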

How the data were processed

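Liver RNA of 8 mice was measured on 1 Affymetrix 3′ array each. The deposited table holds log2 expression values per probe set, a scale inferred from the values. The authors normalized with GCRMA, per the submitters' processing notes; its version was not given in the sources used here. GCRMA compresses low signals, so folds of dim probe sets depend on it. Of 22690 probe sets, 64 are controls and 20380 pair with 1 gene, with symbols updated through the RefSeq table of GRCm38.p6 (20364 identifiers matched).

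Each gene took its brightest probe set, _x_at ones set aside where another existed. Genes whose mean was under 3.38 (the 0.4 quantile) were left out unless 4 arrays exceeded it, leaving 7534 genes, and 12470 probe sets under the same limit. The comparison used limma 3.58.1 with R 4.3.3 (lmFit, eBayes, two-sided, Benjamini-Hochberg) and was tested on simulated data. There 1.71% of changes of 0.5 log2 units were called, 35.6% of changes of 1 and 89.3% of changes of 2. Of the simulated calls 5.85% were false. A gene that was not called is thus not shown to be unchanged. Alternatives were the filter, scaling, probe sets per gene, variance model, blocks and left-out arrays.

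No 2 arrays were identical (highest correlation 0.994). Replicate numbers come from the titles. Deviations of same-numbered arrays correlated at 0.21 to 0.38 in all 4 pairs. For 6 arrays the closest array of the other group bore the same number. The main comparison ignored this pairing, which entered only the alternative named replicate block.

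The members and lists were chosen with earlier results of these data known. All measured members are named, with each array's values for called members and the first of each role. Of other lists, up to 4 called genes per direction or the first 3 measured are named. Other members given array by array, and Proz, Alb, Ggcx, Vkorc1 and the markers below the limit, were chosen after their values were seen.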

Additional observations from a re-analysis of the deposited data

Results flagged for a closer look

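In 2 of 106 groups of 4 values, 1 animal stood apart from the other 3. Chance alone would mark about 1 group in 20. Pros1, the cofactor of protein C, read 5.91 in WT replicate 4 and 7.32 to 7.51 in the other WT livers. Mbl1, a mannose-binding lectin, read 10.98 in WT replicate 3 and 10.71 to 10.73 in the other 3, a gap of about 0.24 log2 units. The other 3 WT values already lay above null replicates 1, 2 and 4 (10.10, 10.21 and 10.08).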

How the results depend on the processing

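The count of members called lower, 3 in the main fit, was 8 with array weights, 7 with a trended, robust prior, 5 with replicates 1 and 2 against 3 and 4 as a block and 0 within replicates 3 and 4, and 1 to 5 with 1 array left out (1 where the second WT liver or null liver 1 or 4 was left out, 5 where null liver 3 was). No member was called higher in any of the 21 alternatives. Member probe sets called lower, 5 in the main fit, were 10, 8, 8 and 0 in the same 4 settings, 3 without both WT replicates 3 and 4, and 2 to 6 with 1 array left out. All genes called higher, 337, became 578, 647 and 162 with array weights, with that block and within replicates 3 and 4, 187 without both WT arrays and 196 to 387 with 1 array left out. All genes called lower, 162, became 428, 334 and 30, 272 after quantile normalization, and 75 to 134. In the 6 lists of other genes that are no cell markers, genes called higher, 3 (Nqo1, Saa3 and Lcn2), became 1 without _s_at, _x_at and _a_at probe sets and 1 within replicates 3 and 4. Those called lower, 2, became 8, 6, 5 and 0 in the 4 settings named first, 1 without both WT arrays, and 1 to 3 with 1 array left out. The cause of these moves was not tested, other than that left-out arrays and fits within replicates leave fewer samples.

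The median of all genes moved by -0.11 after quantile normalization and by -0.065 with each array centred on its median. Calls higher than WT made up 67.5% of all calls in the main fit, 53.6% and 60.9% in these settings. The member median was -0.36 and -0.38 there, with 29 of 33 genes lower, and -0.24 to -0.47 over all alternatives. With the replicate block the member calls stayed F7, Masp2 and C8b, and F7 was called in 20 of 21 alternatives, the exception being within replicates 3 and 4 (adjusted p = 0.0765).

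Signs turned for some differences, none of them called. F5 was 0.041 within replicates 1 and 2 and 0.0029 without both WT arrays, and its second probe set 0.12 within replicates 3 and 4. F13b was -0.044 after quantile normalization, -0.056 with median centring, -0.027 with array weights, -0.038 within replicates 1 and 2 and -0.094 to 0.10 with 1 array left out. F11 was -0.034 and C9 -0.011 within replicates 1 and 2, C9 -0.12 without both WT arrays, and with 1 array left out F11 ran from -0.028 to 0.28 and C9 from -0.084 to 0.47. Serpinc1 was 0.084 and C8g 0.026 within replicates 3 and 4, and Cfb ran from -0.21 to 0.027. The _x_at probe set of Masp1 was -0.00244 after quantile normalization, -0.00355 within replicates 1 and 2, -0.12 without both WT arrays and -0.081 to 0.22. Among other genes, C1qa was 0.21 without both WT arrays and -0.30 to 0.013 with 1 left out. C1qb was -0.077, -0.035 and -0.14 with quantile normalization, median centring and array weights, -0.20 within replicates 1 and 2, -0.26 without both WT arrays and -0.13 to 0.15. Hnf4a was 0.13 without _s_at, _x_at and _a_at probe sets, and Cebpb ran from -0.31 to 0.030.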
